A study of Mus musculus with 6 samples.

Results

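Acinar cells of the exocrine pancreas make digestive enzymes and store them in zymogen granules. The 35 genes described here encode those enzymes, proteins of the granule and of the secretory pathway, 2 protease inhibitors and 4 transcription factors of acinar cells. They were taken by symbol from a table of 16547 genes measured in isolated mouse islets, and all 35 were in it. The 33 genes with a value above 0 in every library could be tested between the groups. Ctrc and Serpini2 were at 0 in at least 1 library.

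The table holds FPKM, a level per length of transcript and per fragment sequenced, for 3 libraries of WT islets and 3 of bKO islets. WT islets carried floxed alleles, written Kcnj11 fl/fl. The bKO islets, written BetaKcnj11 -/- or βKcnj11 -/-, lacked Kcnj11 in beta cells, and the labels name no Cre driver. Kcnj11 codes for the pore subunit of the channel through which ATP sets the potassium current of beta cells. All mice were C57BL/6 and 11 to 12 weeks old, and every islet preparation was picked by hand and kept in culture for 2 days. The labels do not say whether the replicates of a group are different mice, so the p-values measure the spread between these libraries, which may in part be technical.

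Acinar enzymes are packed into granules and released into the duct system. Many of them, though not all, are made as inactive zymogens, and trypsin activates the other zymogens in the gut. The enzyme genes are held on by PTF1, a complex in which PTF1A pairs with an E protein and RBPJL, together with NR5A2 and BHLHA15 (MIST1). Islets lie inside this tissue, and collagenase digestion with hand picking is meant to separate them from it. An islet library is bulk RNA, so fewer acinar cells and less RNA per acinar cell cannot be told apart in any value below.

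The islet identity of the samples was clear from the hormone genes. Ins2 was at 165691 to 274163 FPKM and Gcg at 8490 to 13521 FPKM over the 6 libraries. The deleted gene itself, Kcnj11, measured 19.7, 24.7 and 25.4 FPKM in the WT libraries and 3.45, 5.31 and 3.51 FPKM in the bKO libraries. Here and below, values of a group are given in the order of replicates 1, 2 and 3. The spacing of low FPKM values put the depth at about 23800000 to 40400000 fragments per library. WT replicate 1 was far below the others in acinar transcripts, and bKO replicates 1 and 3 had nearly the same profile, with a Pearson correlation across genes of 0.9986 where the next pair reached 0.9956. Results are therefore also given without WT replicate 1, and the counts also with bKO replicates 1 and 3 averaged as 1 sample.

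Libraries of 1 genotype differed widely in these genes. The share of all FPKM that they took up was 0.227%, 2.89% and 3.72% in the WT libraries. In the bKO libraries it was 5.07%, 2.20% and 5.09%. WT replicate 1 was thus lowest and bKO replicates 1 and 3 highest, while bKO replicate 2 lay below WT replicates 2 and 3, so the groups overlapped. The mean share was 2.28% ± 1.82 in WT and 4.12% ± 1.67 in bKO (SD, n = 3 each), a ratio of 1.81 that came to 1.25 when WT replicate 1 was left out. As a share of the FPKM outside Ins1, Ins2 and Iapp, the ratio was 1.62, and 1.12 without WT replicate 1.

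WT replicate 1 was the lowest library for 33 of the 35 genes and shared the lowest place, at 0, for Serpini2. Among the genes above 0 in every library, 32 of 33 were lowest there, against 28.4% of all 15962 such genes. The exception was Amy1, lowest in WT replicate 3. The highest library was at least 8 times the lowest for 30 of the 33, against 1.87% of all genes. For those 30 the ratio of the highest to the lowest library had a median of 25.2 and ran from 9.43 for Pnliprp1 to 57.8 for Pla2g1b. WT replicate 1 held a median of 5.14% of the level of the middle library among the other 5, from 1.93% for Pla2g1b to 17.9% for Pnliprp1.

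**Figure D1:**
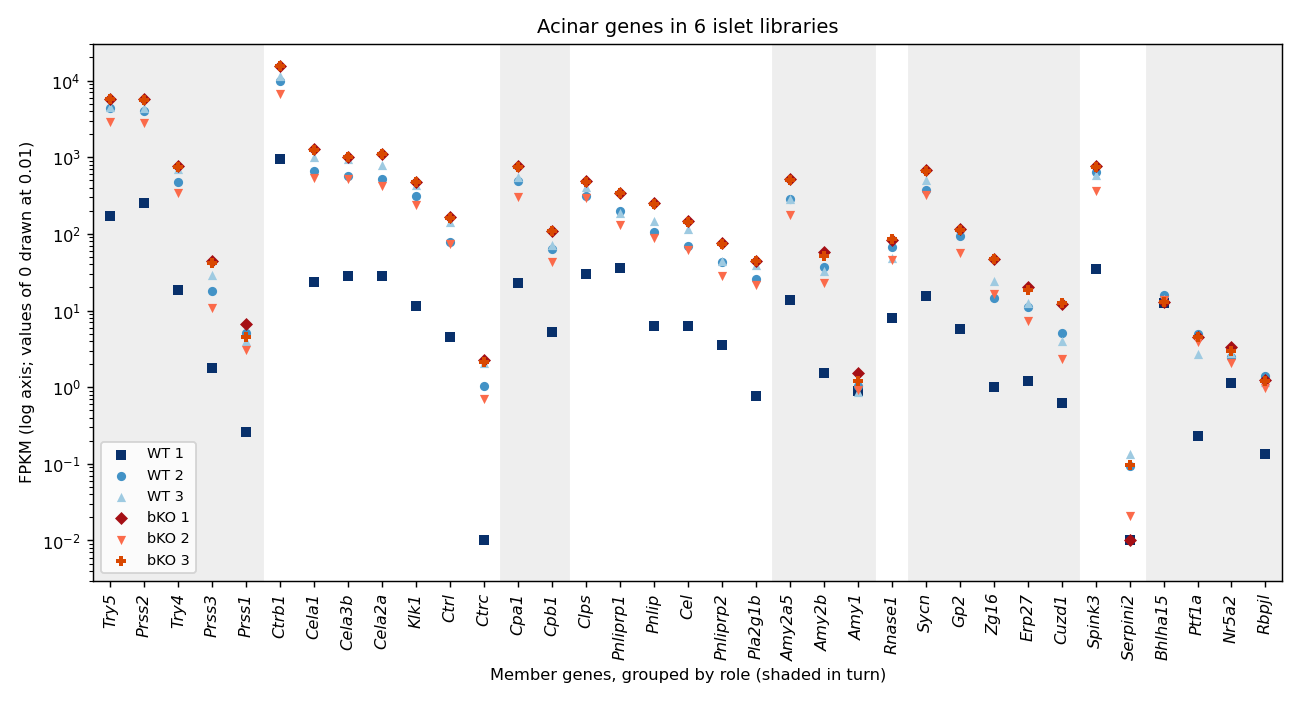
FPKM (log axis) of the 35 acinar genes in each of the 6 libraries, 1 point per library, with genes grouped by role and ordered by mean level within a role; values of 0 are drawn at 0.01. WT replicate 1 is the lowest point for 33 genes, and the points of Bhlha15 and Amy1 lie together.

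The other libraries kept an order as well. In 28 of the 33 genes bKO replicates 1 and 3 were both above every other library, against 21.9% of all genes. In 30 of the 33 bKO replicate 2 was below both WT replicates 2 and 3, against 23.5% of all genes. Over the 30 genes of wide range, bKO replicate 2 held a median of 65.0% of the mean of WT replicates 2 and 3. The mean of bKO replicates 1 and 3 was a median of 1.48 times that WT mean, from 0.958 for Rbpjl to 2.70 for Cuzd1. The ratio of bKO replicate 1 to bKO replicate 3 had a median of 1.02 over the same genes, with its highest value, 1.47, in the weakly expressed Prss1.

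Trypsinogens, the precursors of trypsin, were among the most abundant acinar transcripts. Try5 was at 173, 4432 and 4512 FPKM in WT and at 5693, 2913 and 5680 FPKM in bKO. Prss2, an anionic trypsinogen, was at 250, 3972 and 4423 FPKM in WT and at 5798, 2763 and 5596 FPKM in bKO. In both genes bKO replicate 2 lay between WT replicate 1 and WT replicate 2, so the groups overlapped. Try4 was at 18.6, 473 and 710 FPKM in WT and at 766, 341 and 752 FPKM in bKO. Prss3 was at 1.79, 18.0 and 28.7 FPKM in WT and at 44.5, 10.9 and 41.1 FPKM in bKO. Prss1 was the weakest, at 0.259 to 6.63 FPKM over all libraries. The genes of this family are close in sequence, and how reads shared between them were assigned is not given in the sources used here, so the split between trypsinogens is uncertain.

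Ctrb1, a chymotrypsinogen, was the highest of all 35 genes in every library. It was at 936, 9872 and 11566 FPKM in WT and at 15326, 6689 and 15301 FPKM in bKO. Cela1, an elastase, was at 23.9, 651 and 1005 FPKM in WT and at 1298, 538 and 1237 FPKM in bKO. The elastase Cela3b was at 28.6, 568 and 939 FPKM in WT and at 1001, 522 and 1004 FPKM in bKO. All 3 genes had the same ordering, with WT replicate 1 lowest, bKO replicate 2 next and bKO replicates 1 and 3 highest. Cela2a, a further elastase, was at 28.4, 514 and 803 FPKM in WT and at 1100, 424 and 1090 FPKM in bKO. Ctrl, a chymotrypsin-like protease, ranged from 4.52 to 165 FPKM, and the tissue kallikrein Klk1 from 11.3 to 481 FPKM. Ctrc, chymotrypsin C, which degrades trypsinogen, was at 0 in WT replicate 1 and at 0.705 to 2.26 FPKM in the other 5. At the depth of WT replicate 1 the exact Poisson 95% interval of a count of 0 reached about 0.218 FPKM for this gene.

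The carboxypeptidases, which trim peptides from the C terminus, had the same pattern. Cpa1 was at 22.6, 490 and 548 FPKM in WT and at 773, 302 and 752 FPKM in bKO. Cpb1 was at 5.18, 62.9 and 72.4 FPKM in WT and at 108, 42.7 and 108 FPKM in bKO. For both, bKO replicate 2 was below WT replicates 2 and 3.

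The lipid-digesting genes followed, with 1 milder member. Clps, which encodes the colipase that anchors lipase to fat droplets, was at 29.8, 313 and 407 FPKM in WT and at 493, 296 and 473 FPKM in bKO. Pnlip, pancreatic lipase, was at 6.35, 105 and 148 FPKM in WT and at 251, 89.6 and 243 FPKM in bKO. Pnliprp1, a lipase relative, was at 36.1, 201 and 189 FPKM in WT and at 340, 132 and 338 FPKM in bKO. WT replicate 1 was the lowest library for each, and Pnliprp1 kept a larger part of its level there than the other 29 genes of wide range. Pnliprp2, a lipase of broader specificity, ran from 3.54 to 75.4 FPKM and Cel, the bile-salt-dependent lipase, from 6.20 to 146 FPKM. Pla2g1b, the secreted phospholipase A2, ran from 0.765 to 44.2 FPKM, the lowest value resting on about 5.8 fragments.

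The amylases did not share a single pattern. Amy2a5, a pancreatic amylase that digests starch, was at 13.6, 287 and 289 FPKM in WT and at 514, 176 and 502 FPKM in bKO. Amy2b was at 1.51, 36.9 and 32.6 FPKM in WT and at 58.6, 22.6 and 51.1 FPKM in bKO. Amy1, the salivary amylase, was at 0.886, 1.02 and 0.878 FPKM in WT and at 1.54, 0.931 and 1.21 FPKM in bKO. The first 2 were lowest in WT replicate 1, while Amy1 varied 1.75-fold over all libraries. Amylase genes lie in a cluster of near copies, so their split is uncertain as well. Rnase1, the pancreatic ribonuclease, was at 7.88, 66.5 and 47.8 FPKM in WT and at 83.7, 45.2 and 84.8 FPKM in bKO.

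Granule proteins moved with the enzymes. Sycn, the syncollin of zymogen granule membranes, was at 15.5, 375 and 510 FPKM in WT and at 675, 325 and 665 FPKM in bKO. Gp2, the major glycoprotein of that membrane, was at 5.79, 95.2 and 118 FPKM in WT and at 117, 55.7 and 114 FPKM in bKO. Zg16, a lectin-like granule protein, was at 1.02, 14.8 and 24.6 FPKM in WT and at 46.3, 16.6 and 46.5 FPKM in bKO. Zg16 differed from Sycn and Gp2 in that bKO replicate 2 was above WT replicate 2, and for Gp2 WT replicate 3 was the highest library. Cuzd1, a granule membrane protein, ran from 0.627 to 12.4 FPKM, and Erp27, a chaperone-like protein of the endoplasmic reticulum, from 1.22 to 20.4 FPKM. Spink3, the trypsin inhibitor that guards the gland, was at 34.8, 651 and 585 FPKM in WT and at 776, 363 and 755 FPKM in bKO. Serpini2, a serpin of the pancreas, was barely detected, at 0, 0.093 and 0.134 FPKM in WT and at 0, 0.021 and 0.095 FPKM in bKO, which is about 4.0 fragments at most.

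The 4 transcription factors did not share a single pattern. Ptf1a was at 0.231, 4.95 and 2.72 FPKM in WT and at 4.50, 3.83 and 4.45 FPKM in bKO. Rbpjl, its partner in PTF1, was at 0.133, 1.39 and 1.16 FPKM in WT and at 1.24, 0.962 and 1.20 FPKM in bKO. These 2 genes were low in WT replicate 1, on about 7.0 fragments each, with exact Poisson 95% intervals for counting error of 0.093 to 0.478 FPKM and 0.053 to 0.274 FPKM. For both, the highest library was WT replicate 2, not bKO replicate 1 or 3. Nr5a2, a nuclear receptor, was at 1.13, 2.45 and 2.76 FPKM in WT and at 3.37, 2.10 and 2.97 FPKM in bKO. WT replicate 1 held 41.1% of the middle library of the others for Nr5a2. Bhlha15, which organises the secretory machinery of serous cells, was at 12.6, 16.1 and 14.2 FPKM in WT and at 12.9, 13.9 and 13.1 FPKM in bKO. It varied 1.28-fold over all 6 libraries, and its level in WT replicate 1 was 90.5% of the middle library of the others. Nr5a2, Bhlha15 and Amy1 were the 3 genes whose highest library was under 3 times the lowest.

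**Figure D2:**
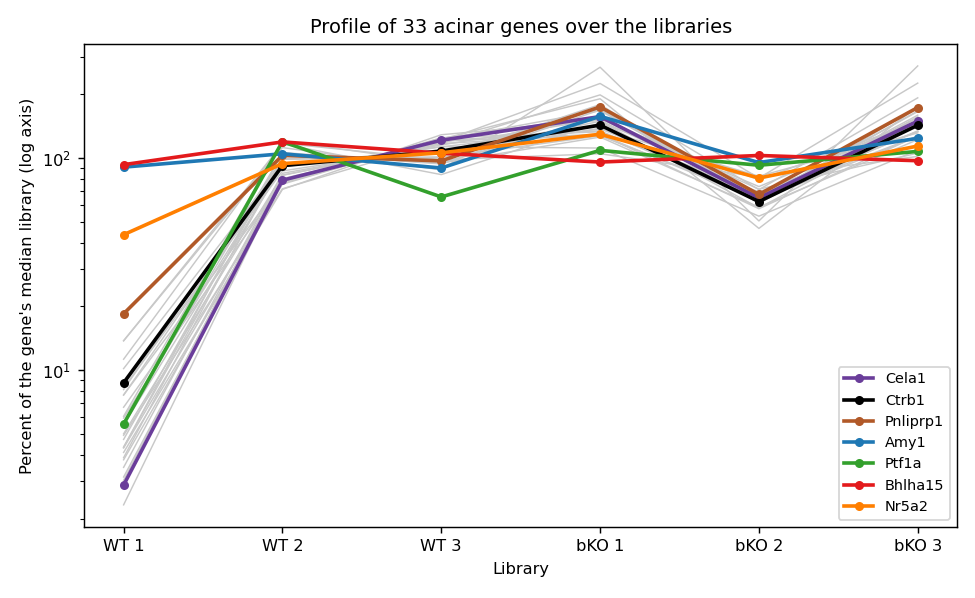
Each of the 33 genes above 0 in all libraries, as a percent of its own median library (log axis), against the 6 libraries; grey lines are single genes and 7 genes are coloured, the lines joining values of 1 gene with no order among replicates. Most lines drop in WT replicate 1, while those of Bhlha15 and Amy1 stay nearly level and that of Nr5a2 lies between.

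The share of the most abundant genes among the acinar transcripts varied little in 5 libraries and differed in WT replicate 1. Ctrb1 alone made up 40.5% to 42.8% of the summed FPKM of the 35 genes in those 5 libraries and 55.6% in WT replicate 1. The 5 trypsinogens made up 33.7% to 37.4% in the 5 libraries and 26.4% in WT replicate 1. For each 100 FPKM of Ctrb1 there were 6.60 to 8.69 FPKM of Cela1 in the 5 libraries and 2.55 in WT replicate 1, where Cela1 rested on about 493 fragments and Ctrb1 on about 14214. For each 100 FPKM of Pnliprp1 there were 52.2 to 77.9 FPKM of Pnlip in the 5 libraries and 17.6 in WT replicate 1. Proportions of weaker genes also varied among the 5 libraries, as the ratios of bKO replicates 1 and 3 to WT replicates 2 and 3 show, from 0.958 for Rbpjl to 2.70 for Cuzd1. The gene pairs were picked after their values were seen, and no test was made of them. The acinar transcripts of WT replicate 1 were lower in share and also differently proportioned.

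The promoters of these genes were searched for the letters of sites known for acinar transcription factors. RefSeq promoter windows of GRCm38.p6, 250 bases before to 50 after the gene start, were held for 29 of the 35 genes, as 31 windows. Clps, Ctrc, Erp27, Spink3, Try5 and Zg16 had none. PTF1 binds an E-box (CANNTG) next to a TC-box (TGGGAA), and both motifs were searched on both strands. Pairs in either order, with any gap up to 30 bases and no overlap, were counted, so a counted pair need not have the spacing of a PTF1 site. Such a pair was in 8 member windows, or 25.8%, and in 6.97% of all 32851 windows. Those 8 were Cel, Cela2a, Cpa1, Ctrb1, Ctrl, Pnliprp1, Prss1 and Rbpjl. The E-box alone was in 80.6% of member windows and 72.3% of all, and the TC-box alone in 51.6% and 25.6%. The letters CAAGGTCA, a binding motif of NR5A2, searched on both strands, were in 2 member windows, Cel and Klk1, or 6.45%, against 1.56%. A TATAAA within the 50 bases before the start, on the gene's strand, was in 9, or 29.0%, against 2.63% of all. Those were Amy2a5, Amy2b, Cela1, Gp2, Pnlip, Prss1, Prss2, Prss3 and Try4. The trypsinogens among them are close in sequence, as are the amylases, so their windows may not be separate cases. The window of Bhlha15 held 3 E-boxes and none of the other 3 motifs. This was not particular to a flat gene. Cpb1, Cela3b, Cuzd1 and Pnliprp2, all of wide range, also held the E-box alone, as did Nr5a2 and Serpini2. Amy1, of narrow range, held both an E-box and a TC-box. These are matches of letters in short windows, not measured binding. Any link between them and the spread of levels over the libraries was not tested.

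The 4 windows below show the highest gene (Ctrb1) and an elastase (Cela2a) with the PTF1-type pair, an elastase with a TATAAA (Cela1), and Bhlha15, whose level was nearly flat. They lie in GRCm38.p6 at chr8:111690961-111691260, minus strand, with a gap of 5 bases between the pair, at chr4:141825956-141826255, minus strand, with a gap of 28 bases, at chr15:100687871-100688170, minus strand, and at chr5:144190036-144190335, plus strand. Each is written 5′ to 3′ along the gene, with capitals for the E-box and TC-box of the pair in Ctrb1 and Cela2a, for TATAAA in Cela1 and for the E-boxes in Bhlha15.
Ctrb1: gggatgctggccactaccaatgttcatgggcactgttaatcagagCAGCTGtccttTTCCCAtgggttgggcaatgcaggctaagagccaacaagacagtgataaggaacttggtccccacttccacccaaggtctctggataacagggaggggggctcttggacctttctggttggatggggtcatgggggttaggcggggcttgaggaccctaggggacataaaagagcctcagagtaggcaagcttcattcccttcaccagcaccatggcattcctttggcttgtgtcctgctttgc
Cela2a: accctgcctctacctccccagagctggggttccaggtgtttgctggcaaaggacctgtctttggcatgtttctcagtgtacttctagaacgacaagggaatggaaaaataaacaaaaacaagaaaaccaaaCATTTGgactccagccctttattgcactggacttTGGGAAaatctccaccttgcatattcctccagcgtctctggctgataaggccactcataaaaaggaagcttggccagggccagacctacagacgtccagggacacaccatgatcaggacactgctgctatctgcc
Cela1: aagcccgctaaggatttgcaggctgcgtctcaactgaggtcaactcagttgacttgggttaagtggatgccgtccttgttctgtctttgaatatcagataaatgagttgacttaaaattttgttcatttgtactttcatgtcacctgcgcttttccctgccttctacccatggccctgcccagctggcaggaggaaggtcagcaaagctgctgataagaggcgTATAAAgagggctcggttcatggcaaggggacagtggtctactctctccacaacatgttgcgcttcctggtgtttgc
Bhlha15: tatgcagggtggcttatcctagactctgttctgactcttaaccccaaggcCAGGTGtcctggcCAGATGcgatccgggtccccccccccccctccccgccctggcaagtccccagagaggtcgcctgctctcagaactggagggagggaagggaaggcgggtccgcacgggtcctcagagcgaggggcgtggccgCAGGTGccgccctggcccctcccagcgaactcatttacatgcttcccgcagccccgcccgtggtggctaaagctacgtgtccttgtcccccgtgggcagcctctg

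Whether these genes differ with the loss of Kcnj11 in beta cells was tested next. None of the 33 tested acinar genes passed, at a Benjamini-Hochberg adjusted p below 0.05 in limma, while 31 of 15962 genes passed in all, or 0.194%, with 0.0626% higher and 0.132% lower in bKO. At an unadjusted p below 0.05 there were 0 of the 33 as well, against 14.2% of all genes. The difference was positive for 32 of the 33, with a median of 1.36 on the log2(FPKM + 1) scale, where all genes had a median of -0.01 and 47.0% were positive. These signs are not separate observations, since all the genes share WT replicate 1. In deposited FPKM the groups overlapped for each of the 35 genes, whereas 21.8% of all genes tested did not overlap.

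The largest log2 differences were those of Cela1, at 1.88 (95% interval -1.29 to 5.05, limma adjusted p = 0.546), and Pnlip, at 1.85 (-0.85 to 4.54, adjusted p = 0.496). Zg16 had the smallest unadjusted p of the set, with a mean of 13.5 ± 11.9 FPKM in WT and 36.5 ± 17.2 FPKM in bKO (SD, n = 3 each; limma log2 difference 1.83, interval -0.48 to 4.15, adjusted p = 0.441). Its value in WT replicate 1 rested on about 9.6 fragments. The most abundant gene, Ctrb1, was at 7458 ± 5711 FPKM in WT and 12439 ± 4979 FPKM in bKO, a ratio of means of 1.67 (limma log2 difference 1.17, interval -0.94 to 3.28, adjusted p = 0.571). Ptf1a was at 2.63 ± 2.36 and 4.26 ± 0.37 FPKM (limma log2 difference 0.73, adjusted p = 0.568). Bhlha15 was the 1 gene with a negative difference, at 14.3 ± 1.76 FPKM in WT and 13.3 ± 0.51 FPKM in bKO (limma log2 difference -0.16, interval -0.38 to 0.07, adjusted p = 0.483). The standard error of the difference ran from 0.09 to 1.32 over the acinar genes, where all genes had a median of 0.08. The 95% interval reached above 1 on the log2 scale for 29 of the 33 genes and below -1 for 16.

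Leaving out WT replicate 1 took away most of the difference. The median of the acinar genes fell from 1.36 to 0.17, and 25 of 34 genes were positive, against 45.9% of all genes. The standard error then had a median of 0.35, and 0 of the acinar genes passed, against 0.312% of all genes (0.143% higher and 0.168% lower in bKO). Zg16 then had the highest difference, 0.72, with an interval of -0.49 to 1.92 (limma adjusted p = 0.523). Try5, Gp2, Rbpjl, Prss1, Spink3, Nr5a2 and Try4 turned negative, at -0.19, -0.23, -0.19, -0.089, -0.055, -0.051 and -0.016. Bhlha15 was the 1 acinar gene with an unadjusted limma p below 0.05 there, against 16.8% of all genes, with a log2 difference of -0.24 (limma adjusted p = 0.226). With WT replicate 1 left out and bKO replicates 1 and 3 averaged, the median was -0.011 and 19 of 35 genes were negative. Without bKO replicate 2 the median was 1.80, 0 acinar genes passed against 0.0563% of all genes (0.0188% higher and 0.0375% lower in bKO), and 1, Cuzd1, had an unadjusted p below 0.05, against 20.1% of all genes (limma adjusted p = 0.192).

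**Figure D3:**
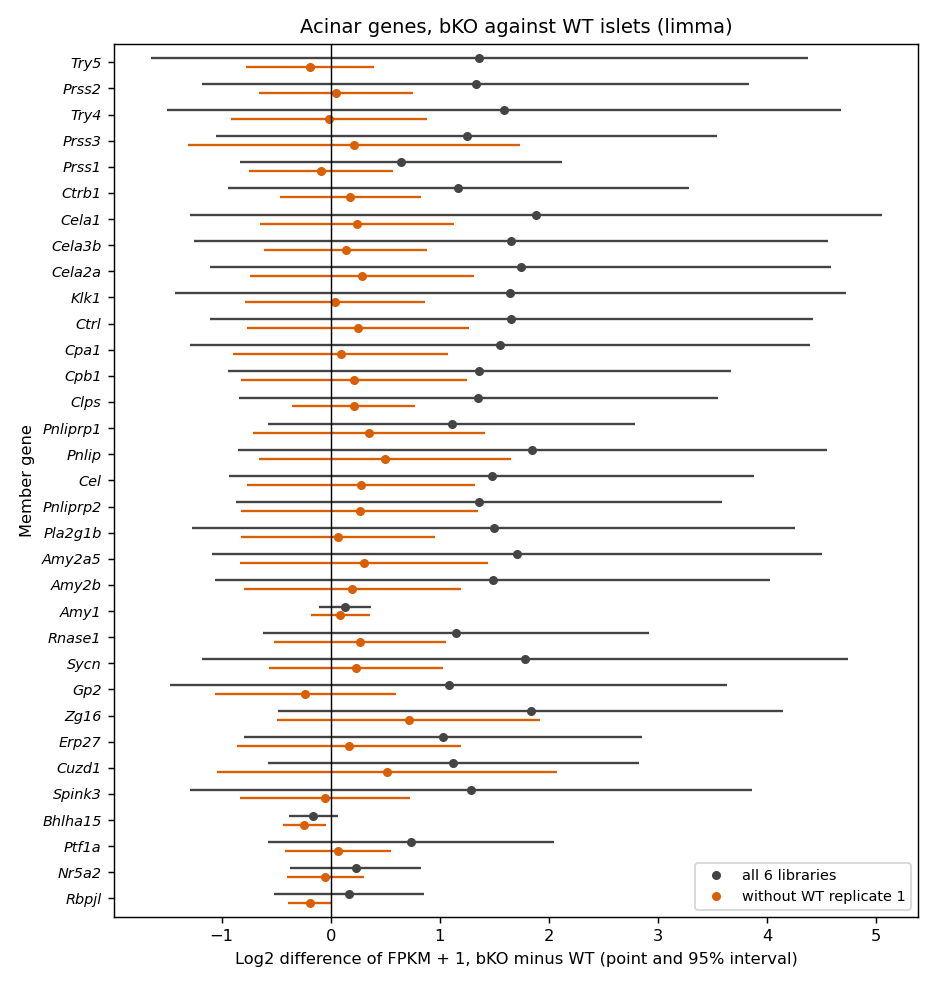
Log2 difference of FPKM + 1, bKO minus WT, for the 33 tested acinar genes (points) with 95% intervals from limma, with all 6 libraries (grey) and without WT replicate 1 (orange). With all libraries each interval spans 0, and without WT replicate 1 the points move toward 0 except for Bhlha15 and Rbpjl, and the intervals shorten except for Amy1.

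A list of 30 other genes that acinar cells express held 26 in the table. Of the 25 above 0 in all libraries, 17 were lowest in WT replicate 1, against 28.4% of all genes. In limma 0 of these 25 passed, against 0.194% of all genes, and 19 differences were positive and 6 negative, against 47.0% positive over all genes, with a median of 0.51. Without WT replicate 1 the median was 0.04, with 14 positive and 12 negative, and 1 gene, Cbs, an enzyme of sulfur amino acid metabolism, passed as lower in bKO, against 0.168% of all genes (it is named after its value was seen). Nupr1, a stress-induced gene of the acinar pancreas, was at 340, 1575 and 2338 FPKM in WT and at 2470, 1141 and 2489 FPKM in bKO. The trypsinogen-like gene 2210010C04Rik was at 3.54, 81.7 and 118 FPKM in WT and at 169, 53.2 and 164 FPKM in bKO. Tff2, a trefoil peptide, was at 2.53, 73.8 and 87.5 FPKM in WT and at 78.4, 38.0 and 73.9 FPKM in bKO. All 3 were lowest in WT replicate 1 and next lowest in bKO replicate 2, while Gstm1, a glutathione transferase found in many tissues, ran from 68.8 to 105 FPKM and was not lowest in WT replicate 1. Across the list the highest library was at least 8 times the lowest for 13 genes and under 3 times for 9.

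The genes whose profile over the 6 libraries lay closest to the median acinar profile were then ranked, among the 80 non-member genes with a range of at least 2 on the log2 scale. Likeness was the root mean square distance between centred log2(FPKM + 1) values. Among the closest were Pdia2, Reg2, 2210010C04Rik, Tff2, Reg3g, Try10, Cabp2, Gm13011 and Dmbt1, at distances of 0.13 to 0.46. Pdia2, a disulfide isomerase of the pancreas, was closest, at 0.397, 14.0 and 21.4 FPKM in WT and at 24.9, 10.5 and 21.8 FPKM in bKO. Reg2, of the Reg family of secreted lectins, was at 62.3, 1003 and 911 FPKM in WT and at 1392, 404 and 1322 FPKM in bKO. Among the members the distance was smallest for Cpb1 and Ctrb1, both 0.08 to 0.09, and largest for Bhlha15 and Serpini2, both 1.43, and Amy1, 1.38.

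Lists of markers of other cells varied less. The duct list, 18 genes of the epithelium that drains the acini, summed to 3300 to 4716 FPKM in WT and 4046 to 5449 FPKM in bKO. Its lowest sum was that of WT replicate 1, 3300 FPKM, against 3674 FPKM in WT replicate 2. Spp1 gave 1492 FPKM of the sum in WT replicate 1 and 820 FPKM of that in WT replicate 2. In the list, 9 of the 18 genes were lowest in WT replicate 1, against 28.4% of all genes. Krt19 was 1 of them, at 50.8, 163 and 206 FPKM in WT and at 251, 136 and 234 FPKM in bKO. In 13 of the 18, bKO replicates 1 and 3 were above every other library. The stellate and fibroblast list summed to 835, 357 and 361 FPKM in WT and to 958, 519 and 939 FPKM in bKO, so that it was high in WT replicate 1, where acinar genes were low. In bKO replicates 1 and 3, 11 of its 14 genes were above every other library. The endothelial list summed to 218 to 234 FPKM in WT and 311 to 321 FPKM in bKO, and 2 of its 14 genes passed as higher in bKO, against 0.0626% of all genes. Those calls went to 0 with the replicate block, with bKO replicates 1 and 3 averaged, and when any library but WT replicate 1 was left out. Leukocyte markers summed to 137 to 175 FPKM in WT and 115 to 120 FPKM in bKO. The beta cell list summed to 271172 to 359591 FPKM in WT and 216844 to 293514 FPKM in bKO. Alpha cell genes summed to 11025 to 12663 FPKM in WT and 8896 to 14138 FPKM in bKO, and delta and PP cell genes to 14325 to 20518 and 16131 to 19744 FPKM. Hormone genes gave most of the beta, alpha, and delta and PP sums. In WT replicate 1, Ins2 gave 230030 of 319200 FPKM, Gcg 10523 of 11025 FPKM and Ppy 11024 of 20518 FPKM. None of the genes of these 7 lists found in the table was at 0 in any library. The part of other cells in the acinar values was not tested.

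**Figure D4:**
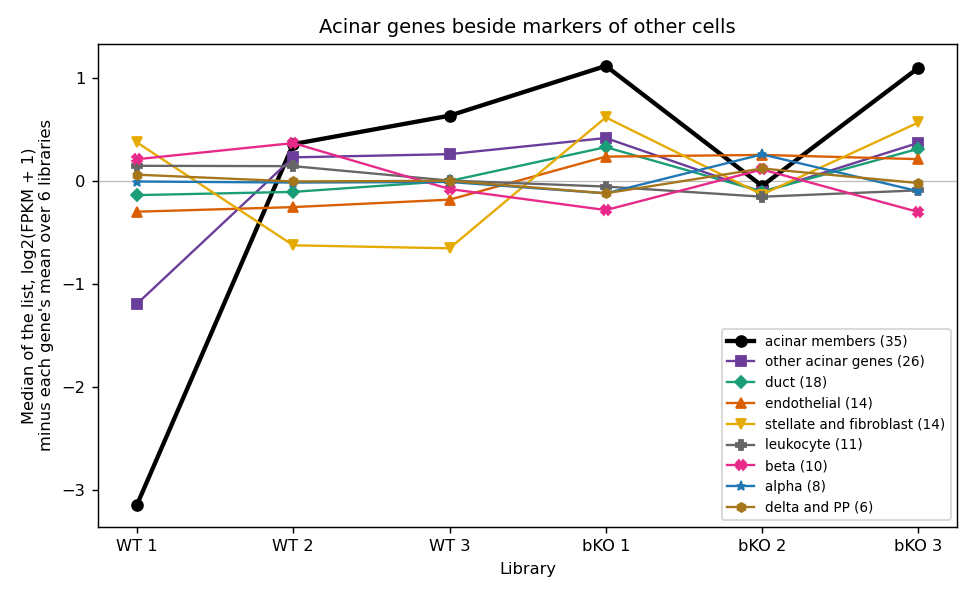
Median over each marker list of log2(FPKM + 1) minus the gene's mean over the 6 libraries, by library, with the number of genes found in brackets. The acinar line spans from -3.14 in WT replicate 1 to 1.12 in bKO replicate 1, the list of other acinar genes drops to -1.19 in WT replicate 1, and the stellate and fibroblast list is raised there.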

How the data were processed

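RNA of 6 islet samples was sequenced by the authors' service provider. Per the labels' protocols and the column headers, the values are FPKM, and per the series' design text trimmed reads were mapped to the mouse genome and quantified with Cufflinks under a fixed annotation. Per the submitters' processing notes mm9 was the build, and for the aligner, the strand setting and versions the sources used here give nothing. That text also speaks of logs, quantile normalization and dropping 0 values, but the deposited FPKM are linear and 585 of 16547 genes are at 0 in some library. A blank row and a row of medians (2 rows in all) were left out, as were genes at 0 in any library from the tests.

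Columns were matched to samples by genotype and replicate number. The tested values were log2(FPKM + 1), in which the added 1 understates changes of low genes. They were quantile normalized over the libraries, which can understate changes of the most abundant genes. It left Ins1, Ins2 and Iapp with no difference. For Ctrb1 the log2 difference was 1.17 with it and 1.29 without it. The bKO minus WT difference was fitted over all 15962 genes with limma 3.58.1 (eBayes with trend, two-sided) in R 4.3.3, with Benjamini-Hochberg adjustment over all of them. These steps were also run on simulated data, with noise drawn separately for each gene and library. That simulation held no shared low library and no near-duplicate pair, so it does not show how the fit behaves on the acinar genes. Fragment numbers were estimated from the spacing of low FPKM values of genes with 1 transcript, at which 62.5% to 71.7% of values lay within 0.1 of a whole number. They are approximate, and intervals from them cover counting error only. Promoters came from RefSeq by gene ID and were searched with Python 3.11.15. Plots used matplotlib 3.10.9, and scipy 1.17.1, pandas 2.3.3 and numpy 2.4.6 did the rest.

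The members, roles, marker lists and settings were chosen with earlier results of these data known. Values in every library are given for the 3 genes of highest mean in each role, the gene of smallest p in each role and all transcription factors, and the others by range. The 4 most abundant other acinar genes and the genes among the 10 nearest profiles are named too, except for 1 that is not reported here. Alternatives were each library left out, bKO replicates 1 and 3 averaged, the replicate block, a pseudocount of 0.1, values as deposited or scaled by median of ratios, all genes kept or only those of mean FPKM 1 or more, and eBayes with no trend. That average without WT replicate 1 was added after seeing the data.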

Additional observations from a re-analysis of the deposited data

How the results depend on the processing

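Over all 15 alternatives no acinar gene passed the limma threshold, and the lowest adjusted p was 0.192. Of 495 single values, 472 kept their sign. The 23 that turned all lay in settings that left out WT replicate 1, and every other setting kept that low library. Without WT replicate 1, 7 turned, and the ranges over the 6 libraries left out in turn were -0.089 to 1.09 for Prss1, -0.016 to 2.52 for Try4, -0.19 to 2.16 for Try5, -0.23 to 1.80 for Gp2, -0.055 to 2.01 for Spink3, -0.19 to 0.39 for Rbpjl and -0.051 to 0.40 for Nr5a2. With WT replicate 1 left out and bKO replicates 1 and 3 averaged, a setting chosen after seeing the data, 19 of 35 genes were negative, the median was -0.011, and 16 genes had turned from positive: Prss1 (-0.19), Prss2 (-0.11), Prss3 (-0.11), Try4 (-0.20), Try5 (-0.32), Ctrb1 (-0.021), Klk1 (-0.13), Cpa1 (-0.12), Cpb1 (-0.0062), Pla2g1b (-0.10), Amy2b (-0.011), Gp2 (-0.41), Erp27 (-0.050), Spink3 (-0.21), Rbpjl (-0.21) and Nr5a2 (-0.11). The median of the acinar genes ran from 0.17 to 1.98 with 1 library left out, and the ratio of shares from 1.25 to 2.65. The count of called genes among all genes, 31, ran from 0 to 50 with 1 library left out, and was 0 with the replicate block, 0 with bKO replicates 1 and 3 averaged and 2 when WT replicate 1 was also left out. The replicate numbers were not taken as pairs. Same-numbered libraries had correlations of -0.20, 0.07 and 0.30 of their deviations across genes, and differently numbered ones had -0.37 to 0.305. These correlations cannot decide whether the numbers are pairs, since bKO replicates 1 and 3 had nearly the same profile. The block left the count of acinar genes at 0. Without a limit on the gap, 12 members in place of 8 held both promoter motifs. In WT replicate 1, Prss1, Pla2g1b, Zg16, Ptf1a and Rbpjl rested on 10 or fewer fragments, and Ctrc and Serpini2 on 0. For Klk1, Amy1, Amy2b and Nr5a2 no fragment number was estimated.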
